A study of Mus musculus with 12 samples.

Results

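The immediate early genes described here are 10 genes of the rapid transcriptional response: Fos, Fosb, Jun, Junb, Atf3, Egr1, Nr4a1, Ier2, Ier3 and Dusp1. They were chosen by symbol from the 53700 Ensembl genes of the count table, and all 10 were found and passed the filter on low counts. RNA-Seq was performed on whole hearts of 6 ac-WT mice (CYB5R3wt/wt, Myh6-CreERT2) and 6 ac-CYB5R3–KO mice (CYB5R3fl/fl, Myh6-CreERT2). Both groups carried the tamoxifen-inducible Cre driven by the cardiomyocyte promoter Myh6, so deletion was directed to cardiomyocytes and the other cells of the heart kept the gene. The male mice began tamoxifen at 10 to 13 weeks of age, received 33 mg/kg/d for 5 days, and were from an FVB/B6 mixed background backcrossed 3 times into C57BL/6J. Hearts were taken 5 days after tamoxifen, and every comparison asks how the RNA of the ac-CYB5R3–KO heart differed at that time.

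Immediate early genes are transcribed within minutes of a signal such as a growth factor, stretch, calcium entry, adrenergic drive or tissue injury, without a need for new protein. Preformed factors bound at their promoters, including serum response factor and CREB, start their transcription, and their short-lived mRNAs are lost soon after. In heart, FOS and JUN family genes, EGR1 and NR4A1 are known to be induced by pressure load, ischemia, catecholamines and the handling of tissue. The interval between CO2 euthanasia and freezing was not given in the sources used here, and its part in the levels below was not tested.

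Promoter sequences of 4 of the genes are shown. Fos, Nr4a1 and Dusp1 varied together between hearts, and Ier3 correlated negatively with them. Over the 12 hearts that negative correlation had an adjusted permutation p under 0.05 with Dusp1 (r = -0.858). It did not with Fos (r = -0.621) or Nr4a1 (r = -0.708). Each line gives the 250 bases before the transcription start (RefSeq, GRCm38.p6), 5′ to 3′ on the strand of the gene. The windows are chr12:85473640-85473889 (plus strand) for Fos, chr15:101266596-101266845 (plus strand) for Nr4a1, chr17:26508473-26508722 (minus strand) for Dusp1 and chr17:35821463-35821712 (plus strand) for Ier3. Capitals mark the CRE half-site TGACG, the core of the sequence bound by CREB, on either strand (CGTCA when read from the other strand).

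Fos: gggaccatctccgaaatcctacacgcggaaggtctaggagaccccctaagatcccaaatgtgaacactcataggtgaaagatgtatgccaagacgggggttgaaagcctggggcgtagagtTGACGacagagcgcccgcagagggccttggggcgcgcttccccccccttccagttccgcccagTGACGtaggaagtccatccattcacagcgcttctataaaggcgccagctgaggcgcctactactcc

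Nr4a1: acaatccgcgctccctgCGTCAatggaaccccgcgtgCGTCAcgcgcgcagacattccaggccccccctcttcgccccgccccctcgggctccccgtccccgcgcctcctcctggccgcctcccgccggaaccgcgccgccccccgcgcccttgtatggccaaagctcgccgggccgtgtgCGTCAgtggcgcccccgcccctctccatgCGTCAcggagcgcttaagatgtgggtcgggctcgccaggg

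Dusp1: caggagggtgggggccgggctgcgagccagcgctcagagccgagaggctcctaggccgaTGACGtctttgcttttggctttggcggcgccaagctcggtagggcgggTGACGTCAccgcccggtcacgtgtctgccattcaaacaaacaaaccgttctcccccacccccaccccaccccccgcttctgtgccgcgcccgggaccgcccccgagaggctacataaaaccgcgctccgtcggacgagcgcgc

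Ier3: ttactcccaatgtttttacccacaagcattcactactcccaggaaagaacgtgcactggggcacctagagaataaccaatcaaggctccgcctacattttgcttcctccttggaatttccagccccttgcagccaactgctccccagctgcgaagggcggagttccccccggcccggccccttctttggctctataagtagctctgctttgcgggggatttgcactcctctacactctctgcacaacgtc

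Motifs were searched on both strands of a window of 250 bases before to 50 bases after the start. A window was found for 8 of the 10 genes, all but Egr1 and Ier2. The half-site TGACG was present in 6 of these 8 windows, compared with 20.8% of 32851 mouse promoter windows of the same length. Its first base lay at positions -129 and -66 in Fos, at -233, -213, -69 and -40 in Nr4a1, and at -191, -143 and -140 in Dusp1, counted back from the start. The last 2 overlap in the full CRE palindrome TGACGTCA, which was present in 1 of the 8 windows, that of Dusp1, and in 1.79% of all windows. Fosb, Junb and Atf3 each held 1 half-site, and the windows of Jun and Ier3 held none. Jun, without a half-site, varied together with Fos, Nr4a1 and Dusp1 between hearts, and Atf3, with 1, did not. A relation between half-sites and co-variation was not tested. The EGR site GCGNGGGCG was present in 2 windows, Fosb at -50 and Nr4a1 at -60, against 5.55% of all windows. The AP-1 site TGANTCA and the CArG box of serum response factor were in 0 of the 8 windows, against 7.81% and 1.63% of all windows. Sites outside these windows, and sites that differ from the exact pattern, were not searched for. The counts therefore do not show that the genes lack such sites. The half-site was added to the search after the longer motifs had been counted.

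The 12 libraries held 43393183 to 53754284 counts. Levels are given in CPM, counts scaled to a common library total, after TMM scaling, which sets the bulk of the genes equal between libraries. Cyb5r3, the targeted gene, was at 81.8 to 185 CPM in ac-WT and 42.0 to 67.4 CPM in ac-CYB5R3–KO hearts, and the groups did not overlap (log2 fold change -1.22, SE 0.19; edgeR adjusted p = 0.0450). The libraries of ac-WT mice 2 and 3 stood apart, with TMM factors of 0.570 and 0.723 against 0.988 to 1.22 in the other 10. Mitochondrially encoded genes took 35.3% and 34.8% of counts in these 2 libraries and 24.0% to 30.1% in the others. Cardiomyocyte markers were present in every heart, at a summed 22200 to 51600 CPM in ac-WT and 16100 to 27600 CPM in ac-CYB5R3–KO hearts. The fold changes of the members and the counts over gene lists are therefore given with and without ac-WT mice 2 and 3.

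Lower levels of 9 of the 10 immediate early genes were measured in ac-CYB5R3–KO hearts at an unadjusted p under 0.05 by edgeR, while 9.73% of the 17847 genes tested were lower and 4.91% were higher at that threshold. The 9 are not separate results, as 8 of the members varied together between hearts (r = 0.682 to 0.959, below). By an exact permutation test over the hearts, also described below, p was under 0.05 for Atf3, Nr4a1 and Dusp1 only. No member passed an adjusted p under 0.05 by edgeR (0 of 10; 2 by DESeq2 and 0 by limma-voom), as 0.101% of all genes did, and the groups overlapped for every member (0 of 10 without overlap, compared with 1.55% of all genes). The median log2 fold change was -1.04 over the 10 genes and -0.01 over all genes tested. These medians were -0.67 and 0.02 without ac-WT mice 2 and 3, and -0.645 and 0.26 with total counts. With 1 surrogate variable the median of the 10 was -0.553. Without ac-WT mice 2 and 3, 2 of the 10 kept an unadjusted p under 0.05 (Atf3 and Nr4a1), compared with 4.54% of all genes lower and 3.44% higher in that fit, and all 10 fold changes remained below 0. With total counts in place of TMM, which moved the median of all genes by 0.26 on the log2 scale, 5 of the 10 had an unadjusted p under 0.05 (Fos, Fosb, Atf3, Nr4a1 and Ier2) and Ier3 turned to 0.10. Under that scaling 2.06% of all genes were lower and 9.45% were higher. In bulk tissue, fewer cells that express a gene and less RNA per cell cannot be told apart.

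**Figure D1:**
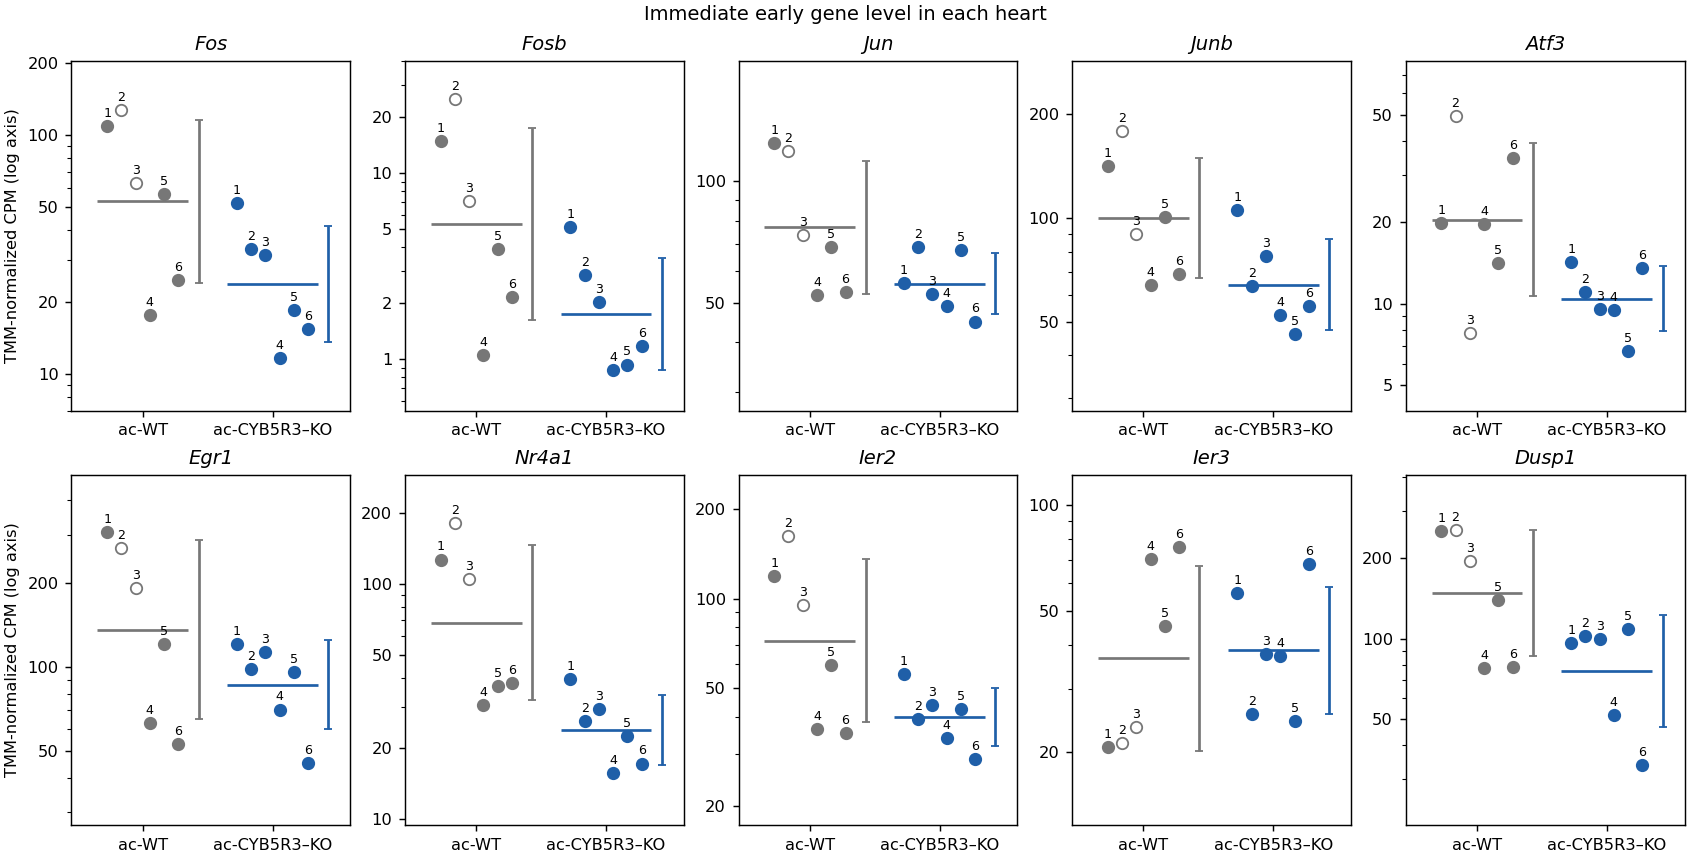
CPM (TMM-normalized, log axis) of each gene in the 12 hearts, with mouse numbers beside the points, open circles for ac-WT mice 2 and 3, a line at the geometric mean and a bar for 1 SD of the log2 values. For all genes but Junb, Atf3 and Ier3 the 3 highest ac-WT hearts were mice 1, 2 and 3, and the groups overlapped in every panel.

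The members of the AP-1 transcription factor, a dimer of FOS and JUN family proteins, were Fos, Fosb, Jun, Junb and the related stress-induced factor Atf3. Fos (ENSMUSG00000021250), the prototype of the class, was at 108, 127, 62.9, 17.5, 56.3 and 24.7 CPM in ac-WT hearts 1 to 6 and at 51.7, 33.3, 31.5, 11.6, 18.4 and 15.4 CPM in ac-CYB5R3–KO hearts 1 to 6. Hearts of ac-WT mice 1, 2, 3 and 5 lay above every ac-CYB5R3–KO heart, and mice 4 and 6 lay within the ac-CYB5R3–KO range. The mean was 66.1 ± 44.0 CPM in ac-WT and 27.0 ± 14.9 CPM in ac-CYB5R3–KO hearts (SD, n = 6). On the log2 scale Fos differed by -1.29 (SE 0.48; edgeR adjusted p = 0.249; exact permutation p = 0.0779). The exact permutation test, here and below, is two-sided over the hearts on log2(CPM + 1), and the smallest p it can give is 0.00216. The unadjusted edgeR p was under 0.05 for Fos, but not without ac-WT mice 2 and 3, where the difference was -0.93 (SE 0.50).

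Fosb, a second FOS subunit and the least abundant of the 10 genes, was at 14.9, 25.1, 7.13, 1.06, 3.93 and 2.16 CPM in ac-WT and at 5.16, 2.84, 2.05, 0.882, 0.939 and 1.18 CPM in ac-CYB5R3–KO hearts. It spanned 23.7-fold within the ac-WT group, the widest range of the 10 genes. With total counts its ac-WT range was narrower, from 1.10 to 14.7 CPM. The lowest ac-WT heart, mouse 4, was below 4 of the ac-CYB5R3–KO hearts. In this fit Fosb had the largest fold change of the 10 on the log2 scale, -2.05 with an SE of 0.69 (edgeR adjusted p = 0.220; exact permutation p = 0.0779). Nr4a1 had the larger one by limma-voom (-1.54, Fosb -1.49) and without ac-WT mouse 2 (-1.421, Fosb -1.414). Without ac-WT mice 2 and 3 the fold change of Fosb was -1.33 (SE 0.67) and the unadjusted p was no longer under 0.05.

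Jun, the main partner of FOS proteins, was at 124, 119, 73.7, 52.4, 68.8 and 53.1 CPM in ac-WT and at 56.0, 68.7, 52.5, 49.0, 67.7 and 44.9 CPM in ac-CYB5R3–KO hearts. Mice 1 and 2 were far above the other hearts, and the remaining 4 ac-WT hearts, at 52.4 to 73.7 CPM, largely overlapped the ac-CYB5R3–KO hearts at 44.9 to 68.7 CPM. Its log2 fold change of -0.54 (SE 0.22) was the smallest of the 9 lower genes (edgeR adjusted p = 0.288; exact permutation p = 0.0801). It was -0.21 (SE 0.21) with total counts and -0.39 (SE 0.23) without ac-WT mice 2 and 3, with an unadjusted p above 0.05 in both.

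Junb, a JUN family subunit that is a weaker activator than JUN, was at 142, 178, 90.3, 63.9, 101 and 69.0 CPM in ac-WT and at 106, 63.6, 77.6, 52.2, 46.0 and 55.6 CPM in ac-CYB5R3–KO hearts. Of the ac-WT hearts, 2 lay above the highest ac-CYB5R3–KO heart, mouse 1. Junb differed between the groups by a log2 value of -0.68 with an SE of 0.27 (edgeR adjusted p = 0.267; exact permutation p = 0.0563). The difference was -0.34 (SE 0.24) with total counts and -0.48 (SE 0.26) without ac-WT mice 2 and 3, again with an unadjusted p above 0.05.

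Atf3, induced through stress kinases and the integrated stress response, was at 19.8, 49.4, 7.77, 19.7, 14.1 and 34.6 CPM in ac-WT and at 14.2, 11.1, 9.52, 9.45, 6.69 and 13.6 CPM in ac-CYB5R3–KO hearts. Its order of hearts differed from that of the other AP-1 genes: mouse 3 was the lowest of the ac-WT group and mouse 6 the second highest. For Atf3 the log2 fold change came to -1.17 with an SE of 0.36 (edgeR adjusted p = 0.195; exact permutation p = 0.0390). Without ac-WT mice 2 and 3 it was -1.02 (SE 0.24), and with total counts -0.84 (SE 0.33). An unadjusted p under 0.05 was obtained for Atf3 in each of the 12 fits that left out 1 heart and in 11 of 11 other fits.

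Of the inducible zinc finger and orphan nuclear receptor genes, Egr1 and Nr4a1 are members. Egr1, a zinc finger factor downstream of ERK signaling, was at 307, 268, 192, 62.8, 121 and 53.0 CPM in ac-WT and at 121, 98.7, 113, 70.4, 96.2 and 45.1 CPM in ac-CYB5R3–KO hearts. Mice 4 and 6 of the ac-WT group each lay below 5 of the ac-CYB5R3–KO hearts, while mice 1 to 3 lay above all of them. The difference of -0.88 in log2 units, with an SE of 0.40 (edgeR adjusted p = 0.335; exact permutation p = 0.199), was closest of the 9 to the unadjusted threshold. It was -0.49 (SE 0.35) with total counts and -0.57 (SE 0.44) without ac-WT mice 2 and 3, past that threshold in neither.

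Nr4a1, an orphan nuclear receptor also called NUR77, was at 127, 182, 105, 30.5, 36.6 and 38.0 CPM in ac-WT and at 39.6, 26.1, 29.3, 15.7, 22.6 and 17.2 CPM in ac-CYB5R3–KO hearts. A single ac-CYB5R3–KO heart, mouse 1, reached into the ac-WT range, and the other 5 lay below every ac-WT heart. The mean was 86.7 ± 61.8 CPM in ac-WT and 25.1 ± 8.77 CPM in ac-CYB5R3–KO hearts (SD, n = 6). The log2 fold change of -1.79 (SE 0.43) had the smallest p of the 10 genes (edgeR adjusted p = 0.173; exact permutation p = 0.0108). Without ac-WT mice 2 and 3 it was -1.20 (SE 0.39), and with total counts -1.33 (SE 0.34), both with an unadjusted p under 0.05, as in all 23 alternatives. DESeq2 gave Nr4a1 an adjusted p of 0.00453 and Atf3 an adjusted p of 0.0484, and adjusted p values under 0.05 for 437 genes in all.

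Among the remaining members, Ier2 encodes a nuclear protein of the early response, Ier3 a stress-induced modulator of ERK signaling and survival, and Dusp1 the nuclear phosphatase MKP-1 that switches off p38, JNK and ERK. Ier2 was at 119.5, 163, 95.2, 36.2, 59.6 and 35.2 CPM in ac-WT and at 55.7, 39.4, 43.7, 34.0, 42.4 and 28.7 CPM in ac-CYB5R3–KO hearts. Its ac-WT hearts 4 and 6 lay among the ac-CYB5R3–KO hearts and the other 4 lay above them. Between groups the log2 fold change was -1.06 (SE 0.34; edgeR adjusted p = 0.210; exact permutation p = 0.0671). It was -0.65 (SE 0.26) with total counts and -0.61 (SE 0.31) without ac-WT mice 2 and 3, where the unadjusted p was above 0.05.

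Dusp1 was at 252, 255, 195, 77.5, 139.9 and 78.5 CPM in ac-WT and at 96.0, 102, 99.8, 51.9, 108 and 33.6 CPM in ac-CYB5R3–KO hearts. It was the most abundant member per kilobase of exon in ac-WT hearts. The lowest 2 values of the 12 were in ac-CYB5R3–KO mice 6 and 4. Dusp1 differed between the groups by a log2 value of -1.02 with an SE of 0.36 (edgeR adjusted p = 0.230; exact permutation p = 0.0455). With total counts it was -0.64 (SE 0.32) and without ac-WT mice 2 and 3 it was -0.73 (SE 0.38), both with an unadjusted p above 0.05.

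Ier3 stood apart from the other members. It was at 20.7, 21.2, 23.4, 70.1, 45.3 and 75.9 CPM in ac-WT and at 56.3, 25.5, 37.8, 37.2, 24.4 and 68.1 CPM in ac-CYB5R3–KO hearts. The 3 ac-WT hearts that were highest for Fos, Egr1, Nr4a1, Ier2 and Dusp1 were the lowest of all 12 hearts for Ier3. The mean was 42.8 ± 25.2 CPM in ac-WT and 41.6 ± 17.4 CPM in ac-CYB5R3–KO hearts (SD, n = 6). The log2 difference was -0.04 (SE 0.37; edgeR adjusted p = 0.967; exact permutation p = 0.881). Its sign changed with the setting, and it was -0.34 (SE 0.36) without ac-WT mice 2 and 3.

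**Figure D2:**
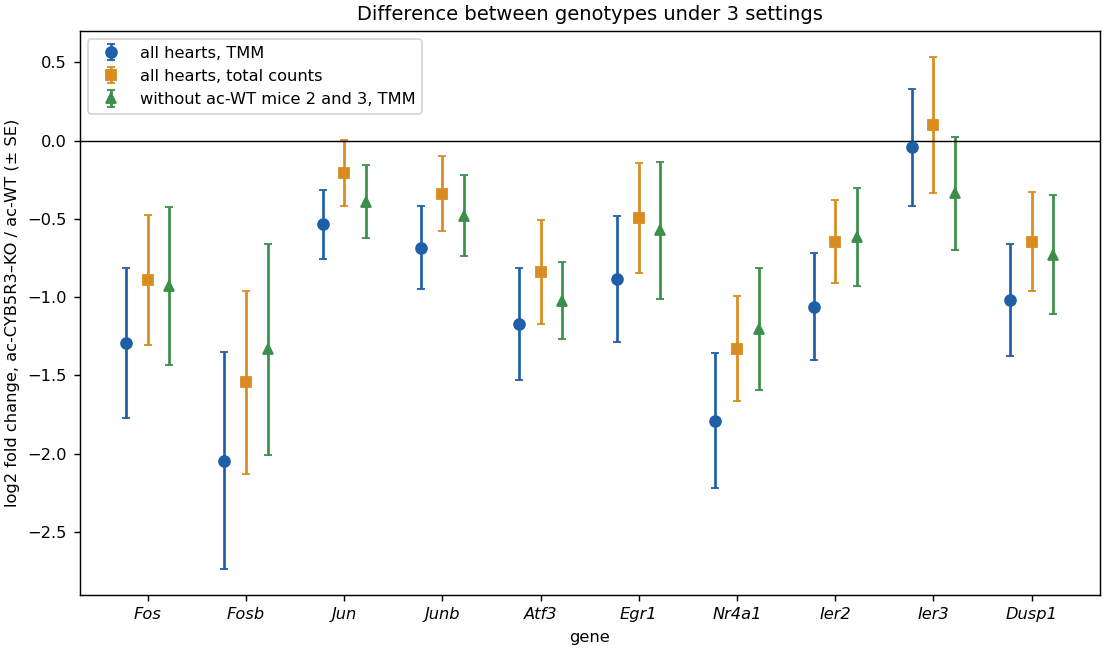
Log2 fold change (ac-CYB5R3–KO over ac-WT) of each gene with its SE from edgeR, for all hearts with TMM scaling (circles), all hearts with total counts (squares) and without ac-WT mice 2 and 3 (triangles). All estimates but that of Ier3 with total counts lie below 0, and the alternatives bring all but Ier3 closer to 0 than the fit with all hearts.

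Levels between genes were compared per kilobase of annotated exon. In ac-WT hearts the order ran from Dusp1 at 61.6 ± 29.8 CPM per kilobase through Junb (59.4 ± 24.7), Ier2 (55.7 ± 33.4) and Egr1 (54 ± 34.2) to Ier3 (37.8 ± 22.3) and Nr4a1 (35 ± 25), all SD with n = 6. Fos (28.1 ± 18.7), Jun (25.7 ± 10), Atf3 (12.2 ± 7.66) and Fosb (2.41 ± 2.48) followed. Neighbours in this order differed by less than the SD between hearts, except that Jun exceeded Atf3, and Atf3 exceeded Fosb, by more than the SD of either gene of the pair. In ac-CYB5R3–KO hearts Junb and Ier3 led, at 37.0 ± 12.1 and 36.7 ± 15.4 CPM per kilobase, and Dusp1 was at 30.4 ± 11.6.

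Variation between hearts of a group was large. The SD of log2(CPM + 1) was 0.54 (Jun) to 1.40 (Fosb) in ac-WT hearts, at percentiles 90.2 to 99.7 of all genes tested, where the median SD was 0.25. In ac-CYB5R3–KO hearts it was 0.24 (Jun) to 0.77 (Fos), at percentiles 77.7 to 99.4, where the median was 0.16. The ac-WT SD was the larger for 10 of 10 members and for 78.9% of all genes, so the direction of this difference was that of most genes. In TMM-scaled CPM the heart of ac-WT mouse 2 was the highest of the 12 for 7 members. Mice 1, 2 and 3 were among the 3 highest hearts for 9, 9 and 7 members. At the other end, ac-CYB5R3–KO mice 4 and 6 were among the 3 lowest hearts for 8 and 7 members. These ranks depend on the scaling. With total counts ac-WT mouse 2 was not the highest heart for any member. Fos was then at 107, 72.4 and 45.5 CPM in ac-WT mice 1 to 3 and at 63.4 CPM in mouse 5.

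**Figure D3:**
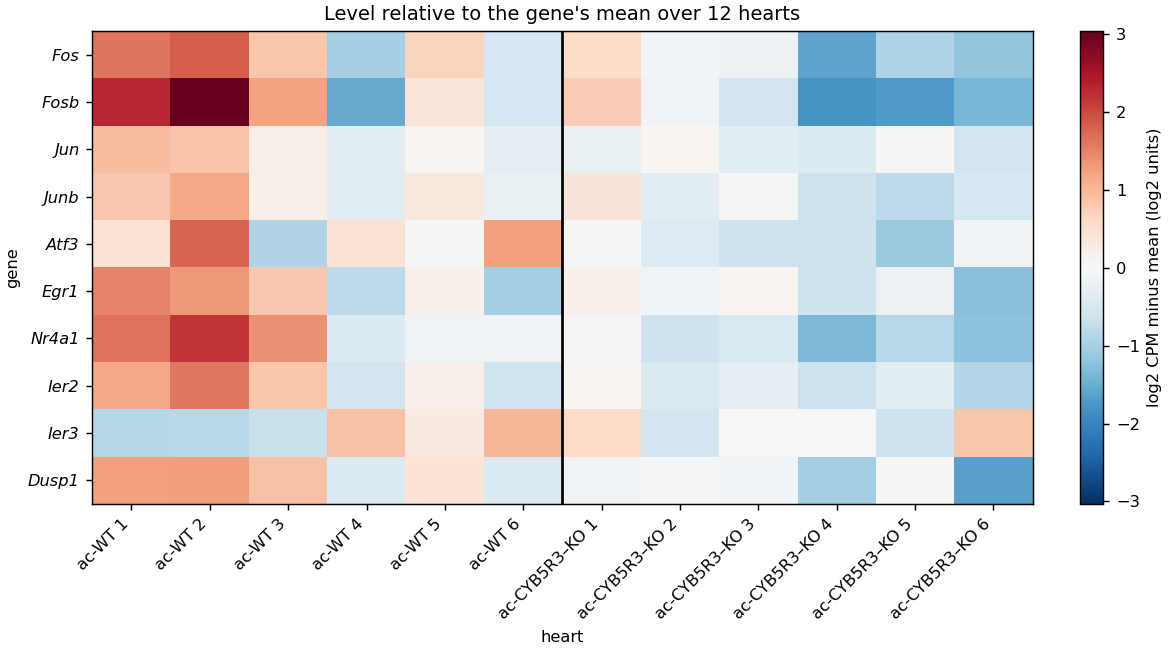
Level of each gene (rows) in each heart (columns) as log2 CPM minus the gene's mean over the 12 hearts, red above and blue below the mean, with a line between the groups. Red columns at ac-WT mice 1 to 3 turn blue in the Ier3 row, and Atf3 is below its mean in ac-WT mouse 3.

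The genes varied together between hearts. After the group means were subtracted, 32 of the 45 pairs of members had a correlation with a permutation p under 0.05 after Benjamini-Hochberg adjustment over the 45 pairs, and 31 had one by Spearman's rho. Of these 32 pairs, 28 were positive and comprised every pair of Fos, Fosb, Jun, Junb, Egr1, Nr4a1, Ier2 and Dusp1 (r = 0.682 to 0.959, rho = 0.622 to 0.972, n = 12 hearts, adjusted permutation p = 0.00054 to 0.048). Without the 2 hearts farthest from the median, these 28 correlations were 0.417 to 0.925. The points share their library and its scaling. With total counts 22 of the 45 pairs passed, and without ac-WT mice 2 and 3 it was 27.

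The other 4 pairs were negative and joined Ier3 to Jun (r = -0.871, rho = -0.874, adjusted permutation p = 0.00461), Dusp1 (r = -0.858), Egr1 (r = -0.843) and Ier2 (r = -0.789). With total counts none of the pairs of Ier3 passed (0 of 8 with the genes above, r = -0.707 to -0.0702), and 3 of 8 passed without ac-WT mice 2 and 3. Atf3 passed with none of the other members, with r between -0.131 (Dusp1) and 0.385 (Junb).

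Within ac-WT hearts alone the 28 correlations were 0.858 to 0.994, those of Ier3 with the same genes were -0.986 to -0.849, and 34 of 45 pairs passed an exact permutation test after adjustment by Pearson's r and 20 by Spearman's rho (n = 6). For 7 of the 10 genes ac-WT mice 1 to 3 all lay above mice 4 to 6 in TMM-scaled CPM. With only 3 hearts on each side, the relation within either set was not tested. Within ac-CYB5R3–KO hearts the 28 correlations ran from -0.0684 to 0.975, and those of Ier3 with the same genes from -0.819 to 0.425. Of the 45 pairs, 12 had an exact permutation p under 0.05 and 0 passed after adjustment (lowest adjusted p = 0.0625, n = 6).

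**Figure D4:**
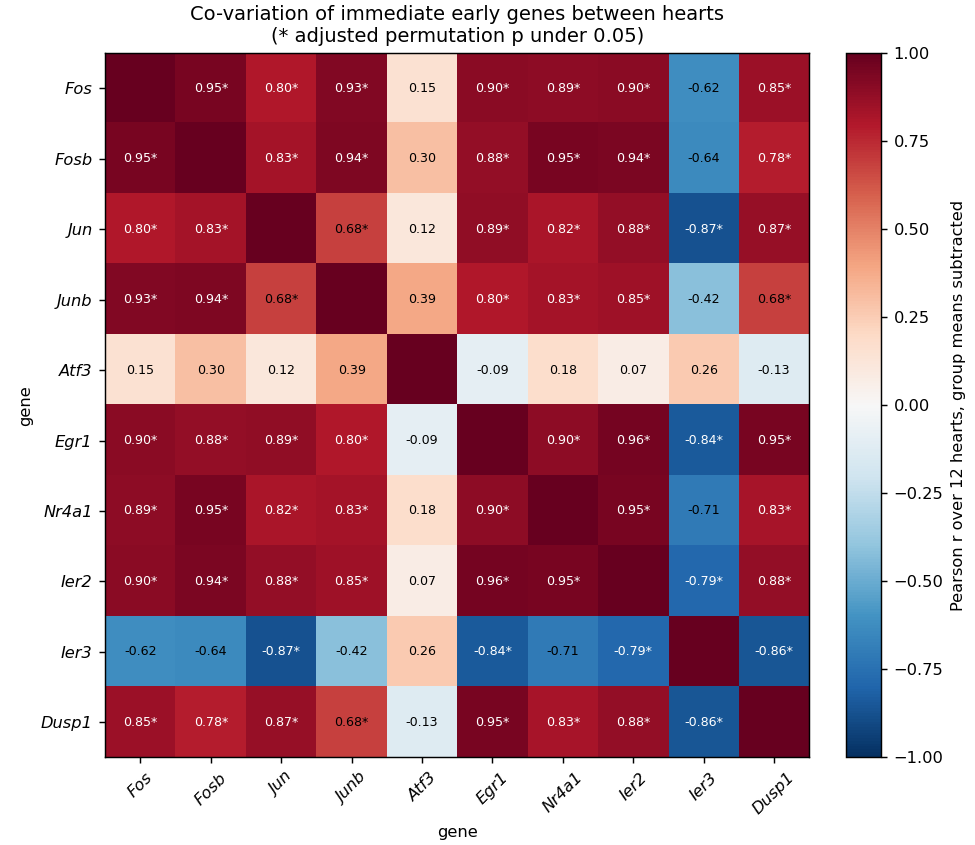
Pearson r between each pair of genes over the 12 hearts after subtracting group means, with an asterisk where the adjusted permutation p was under 0.05. A red block joins 8 genes, the Ier3 row is negative with those 8, and the Atf3 row is between -0.131 and 0.385.

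Other measurements moved with the same hearts, and their part in the levels above was not tested. Macrophage markers (7 of 8 listed genes matched, Cd68 and Csf1r among them) summed to 573, 392 and 422 CPM in ac-WT mice 1 to 3 and to 1418, 1407 and 1562 CPM in mice 4 to 6, compared with 636 to 1080 CPM in ac-CYB5R3–KO hearts. Fibroblast markers (8 of 8) summed to 3601, 1192 and 1313 CPM and to 5480, 6578 and 5663 CPM in the same hearts, with 3800 to 5840 CPM in ac-CYB5R3–KO hearts. Ier3 was thus high in the ac-WT hearts in which both sums were high, and Fos, Egr1 and Dusp1 were high where both were low. Of the ac-CYB5R3–KO hearts, Ier3 was lowest in mouse 5 (24.4 CPM) and highest in mouse 6 (68.1 CPM). Fibroblast sums in these mice were 5843 and 4012 CPM, the opposite order, and macrophage sums were 727 and 1083 CPM, the same order. Cardiomyocyte markers summed to 51560 and 40220 CPM in ac-WT mice 2 and 3 and to 22230 to 25170 CPM in the other 4 ac-WT hearts. Mouse 1, a single heart with high immediate early genes, was among those 4. No marker of these lists was at 0 in all hearts.

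Between the groups, cartilage and airway markers did not overlap, at 4.41 to 41 CPM in ac-WT and 59 to 129 CPM in ac-CYB5R3–KO hearts, and 4 of the 5 tested were higher at an unadjusted p under 0.05. Red blood cell markers summed to 232 to 4510 and 1340 to 12300 CPM, and 5 of 6 were higher, 6 of 6 without ac-WT mice 2 and 3. Of all genes tested, 9.73% were lower and 4.91% higher at that threshold, and 4.54% and 3.44% without ac-WT mice 2 and 3. Of the cardiomyocyte markers 5 of 10 were lower, as were 3 of 8 smooth muscle and pericyte markers (1 was higher). Also lower were 3 of 6 skeletal muscle markers, 3 of 4 neural and Schwann markers, 1 of 3 atrial markers and 1 of 7 macrophage markers. These numbers lower were 3, 2, 2, 3, 0 and 3 without ac-WT mice 2 and 3, and 2 of 8 fibroblast markers were lower, against 0 of 8 with all hearts. Of the lymphocyte markers 1 of 7 was higher in both fits. Endothelial sums were 774 to 1510 and 832 to 1520 CPM and neutrophil sums 5.76 to 13.3 and 4.53 to 22 CPM, with 0 genes passing in either list. The counts of the cartilage and airway, endothelial and neutrophil lists were the same without ac-WT mice 2 and 3.

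A wider list of 65 rapid response genes, none of them a member, was compared next. Of the 63 tested (Fosl1 and Egr4 were too low), 15 were lower and 1 was higher in ac-CYB5R3–KO hearts at an unadjusted p under 0.05, against the 9.73% lower and 4.91% higher of all genes. None (0) passed an adjusted p under 0.05 by edgeR or by limma-voom, and 8 did by DESeq2. The median log2 fold change was -0.15, against -1.04 for the 10 members. Without ac-WT mice 2 and 3 these medians were -0.14 and -0.67, and with total counts they were 0.135 and -0.645. The number lower was 8 without ac-WT mice 2 and 3, against 4.54% of all genes. With total counts the number lower was 6, against 2.06% of all genes.

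The lowest p was that of Ptgs2, the inducible prostaglandin synthase COX-2, at 3.80 ± 0.718 CPM in ac-WT and 1.70 ± 0.632 CPM in ac-CYB5R3–KO hearts (SD, n = 6; log2 fold change -1.16, SE 0.24, edgeR adjusted p = 0.113). Its groups did not overlap, at 3.23 to 5.20 and 0.745 to 2.57 CPM. Nr4a3, a paralog of Nr4a1, did not overlap either, at 2.75 to 9.95 and 1.48 to 2.33 CPM (log2 fold change -1.39, SE 0.34). Arc, best known as a synaptic activity gene, was at 3.39 ± 1.79 and 1.34 ± 0.457 CPM (log2 fold change -1.32).

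Klf4, a Krüppel-like factor of vascular cells, was at 57.1 ± 17.9 CPM in ac-WT and 32.0 ± 4.36 CPM in ac-CYB5R3–KO hearts (log2 fold change -0.83, SE 0.19, edgeR adjusted p = 0.145). Similar log2 fold changes were measured for Errfi1, a feedback inhibitor of the EGF receptor (-0.87), Id1, a BMP-responsive inhibitor of bHLH factors (-0.86), and Zfp36, which destabilizes AU-rich mRNAs (-0.84). Sgk1, a kinase induced by corticosteroids (-0.78), Csrnp1, a nuclear protein (-0.75), Pim1, a survival kinase (-0.45), and Dusp8, a phosphatase of JNK and p38 (-0.37), were also lower, with adjusted p values of 0.173 to 0.251 for the 7 genes named in these 2 sentences. The single gene that was higher was Mafk, a small MAF protein that partners NRF2, at 19.5 ± 3.24 and 26.9 ± 1.68 CPM (log2 fold change 0.46, SE 0.11, edgeR adjusted p = 0.145).

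**Figure D5:**
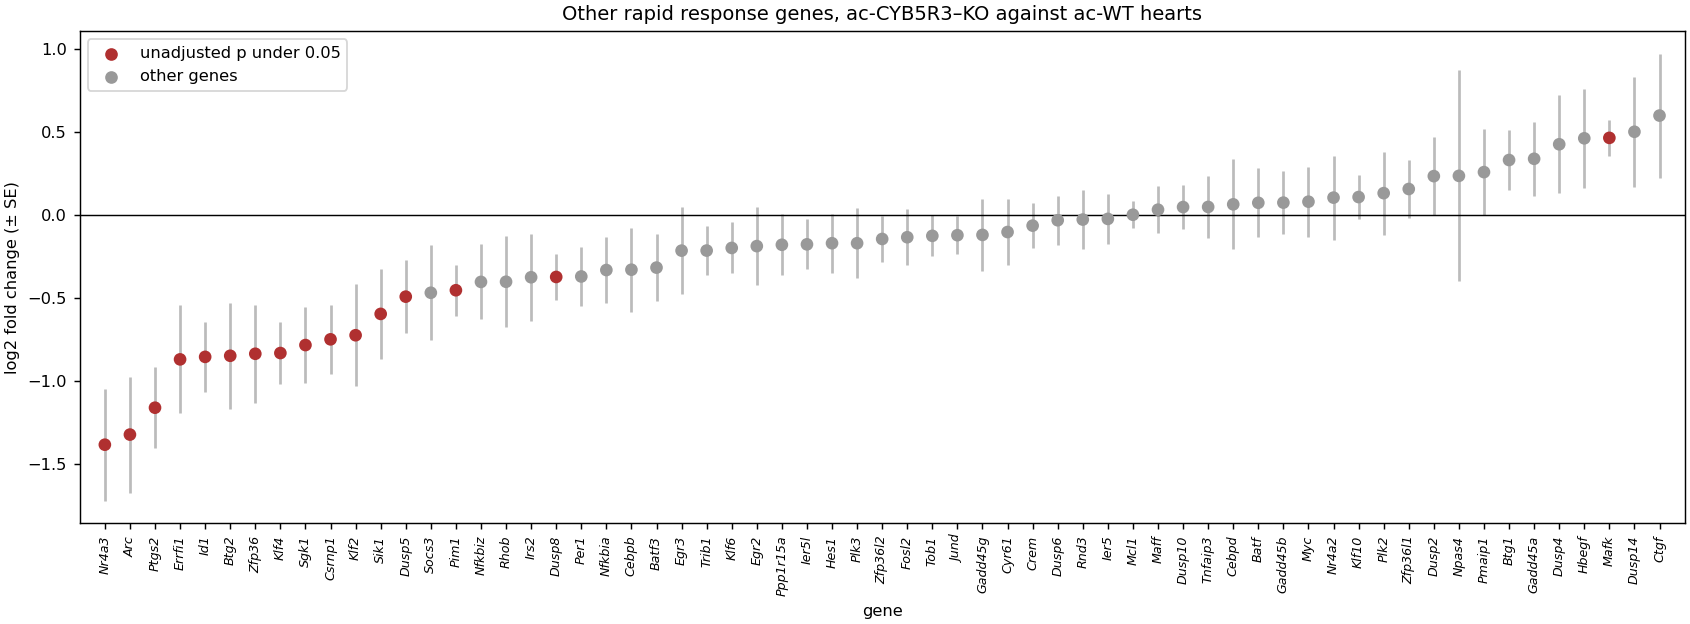
Log2 fold change (ac-CYB5R3–KO over ac-WT, with SE) of the 63 tested genes of the wider list, in order, red where the unadjusted edgeR p was under 0.05. Nr4a3, Arc and Ptgs2 are at the low end and Mafk is the single red point above 0.

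By family, 5 of 11 tested AP-1 genes were lower, all 5 of them members, and 1 was higher (Mafk). Of all genes, 9.73% were lower and 4.91% higher at the same threshold. The AP-1 gene outside the 10 with the highest level was Jund, a constitutive subunit, at 55.4 ± 8.998 and 50.9 ± 4.99 CPM (log2 fold change -0.12, SE 0.11, edgeR adjusted p = 0.6248). In the EGR and NR4A families 3 of 6 were lower (Egr1, Nr4a1 and Nr4a3), while Egr2 was at 13.8 ± 3.88 and 12.1 ± 4.15 CPM (log2 fold change -0.19, SE 0.23). Of the MAP kinase phosphatases 3 of 9 were lower, Dusp1, Dusp8 and Dusp5, the last named after its values were seen, at 4.56 to 9.60 and 3.66 to 6.71 CPM. Dusp6, the cytoplasmic ERK phosphatase and the most abundant one outside the members, was at 32.4 ± 7.82 and 31.7 ± 4.08 CPM (log2 fold change -0.03, SE 0.15). In the IER family 1 of 4 was lower (Ier2), and Ier5 was at 59.5 ± 12.01 and 58.5 ± 9.998 CPM (log2 fold change -0.02, SE 0.15). Leaving out ac-WT mice 2 and 3, the numbers lower were 1 of 11 AP-1 genes, 2 of 6 EGR and NR4A genes, 0 of 9 phosphatases and 0 of 4 IER genes. With total counts they were 3, 2, 0 and 1. The shares of all genes lower were 4.54% without ac-WT mice 2 and 3 and 2.06% with total counts.

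Of 22 factors that act upstream of these promoters, such as kinases and the factors that bind SRE and CRE elements, 1 was lower, Mapk14. Of all genes tested, 9.73% were lower and 4.91% higher at an unadjusted p under 0.05. Mapk14 encodes p38 alpha and was named after its values were seen (log2 fold change -0.38, SE 0.14, edgeR adjusted p = 0.254). It was at 50.0 CPM in ac-WT mouse 3, with the next ac-WT heart at 31.4 CPM. Of 14 repressors and inhibitors of the response 3 were lower, Zfp36, Errfi1 and Btg2, and 0 were higher. Glucocorticoid responsive genes had 3 of 12 lower (Sgk1, Errfi1 and Mt1), 2 of which are also in the wider list. By edgeR and by limma-voom 0 genes of these lists passed an adjusted p under 0.05, and by DESeq2 1 did, in the glucocorticoid list. The numbers lower were 1 of 22, 1 of 14 and 1 of 12 without ac-WT mice 2 and 3, against 4.54% of all genes. With total counts they were 0 in all 3 lists, against 2.06% of all genes. Under that scaling 2 upstream factors were higher, against 9.45% of all genes.

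The pattern of the members over the hearts was compared with that of 14431 other genes with a mean of at least 1 CPM, as the correlation with the mean of the 10 standardized genes after group means were subtracted (n = 12 hearts). The 6 genes most like it were Ppp1r15a, the GADD34 subunit of the phosphatase that acts on eIF2 alpha (r = 0.936), Btg2, an antiproliferative early gene (0.932), Cxcl1, a neutrophil chemokine (0.925), Zfp36 (0.916), 0610040B10Rik (0.913) and Mtmr4, an endosomal lipid phosphatase (0.903). With total counts the first 4 remained at 0.885 to 0.929, while 0610040B10Rik was at 0.566 and Mtmr4 at 0.357. Ppp1r15a did not pass the test between groups, at 33.3 ± 11.02 CPM in ac-WT and 29.4 ± 3.46 CPM in ac-CYB5R3–KO hearts (log2 fold change -0.18, SE 0.18, edgeR adjusted p = 0.661). Cxcl1 was at 3.79 to 18.2 and 1.06 to 4.0 CPM (log2 fold change -1.62, SE 0.40, edgeR adjusted p = 0.173).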

How the data were processed

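Total RNA of 12 frozen mouse hearts was sequenced by the authors as 75 bp unpaired reads from stranded libraries. The authors deposited raw read counts per gene for 53700 Ensembl genes, not normalized or filtered, and 0 columns were left unused. The submitters' processing notes name STAR, featureCounts and GRCm39, while the methods name STAR and mm9 with FPKM values from Cufflinks, so no coordinates of the counted genes are given. The strand setting is not given in the sources used here. Symbols were found for 31027 identifiers.

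Groups and replicate numbers came from the sample labels, which name no batch. Genes were filtered (filterByExpr, minimum count 10), scaled by TMM and tested between groups with edgeR 4.0.16 (quasi-likelihood, two-sided) in R 4.3.3, with Benjamini-Hochberg adjustment over 17847 genes. For single genes an exact permutation test (two-sided, 924 placements of the hearts) was run on log2(CPM + 1), with a pseudocount of 1, and pairs of genes by 100000 permutations within groups. Lengths for the levels per kilobase came from the GENCODE vM1 exons. At 43393183 or more counts per library, the spread between hearts (biological coefficient of variation 26.5%; r = 0.948 to 0.993 within groups), rather than counting error, limits the precision. No 2 libraries held identical counts (0 pairs). The fits were tested on simulated data.

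All 10 members were named. From the wider list and the upstream factors, at most 12 genes with an unadjusted p under 0.05 were named by smallest p, with the most abundant gene of each family outside the 10 and the 6 genes of most similar pattern. Members and lists were chosen with earlier results of these data known. Alternatives were DESeq2 1.42.0, limma-voom (limma 3.58.1), RLE size factors, total counts of all or of nuclear genes, a strict filter (10 or more counts in each library) or none, a block for the replicate number, 1 surrogate variable (sva 3.50.0), and leaving out single hearts or ac-WT mice 2 and 3. Motifs and tests over pairs were computed with numpy 2.4.6 and scipy 1.17.1.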

Additional observations from a re-analysis of the deposited data

Results flagged for a closer look

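In 6 of 80 groups of 6 hearts, over the genes named, 1 heart lay farther from its group than Dixon's 95% critical value allows, where chance gives about 1 in 20. No immediate early gene among the 10 was concerned. Ptgs2 was 5.20 CPM in ac-WT mouse 2, with the next heart at 3.74 CPM. Jund was 72.7 CPM in ac-WT mouse 2, with the next at 57.9 CPM, and Hspe1, a mitochondrial chaperone, was 115.5 CPM in the same heart, with the next at 80.5 CPM. Id1 was 44.5 CPM in ac-CYB5R3–KO mouse 5, with the next at 31.9 CPM. Mapk14 was 50.0 CPM in ac-WT mouse 3 (next 31.4 CPM) and 30.7 CPM in ac-CYB5R3–KO mouse 3 (next 25.6 CPM).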

How the results depend on the processing

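The count of members with an unadjusted p under 0.05 was 9 in the fit reported. It was 5 with total counts, 2 with 1 surrogate variable, 2 without ac-WT mice 2 and 3, and 2 with total counts of nuclear genes in those same 10 libraries, and it ran from 5 (without ac-WT mouse 2) to 9 when single hearts were left out. The number of members with an adjusted p under 0.05 was 0 except with DESeq2, where it was 2. Of all genes, 18 passed in the fit reported, 437 with DESeq2, 35 with no filter, 11 with total counts of nuclear genes, 8 with total counts, 8 with RLE size factors, 7 without ac-WT mice 2 and 3, 7 with nuclear totals in those libraries, 4 with 1 surrogate variable, 2 with limma-voom and 2 to 38 when single hearts were left out, the highest without ac-WT mouse 4. The wider list had 15 lower genes in the fit reported, 6 with total counts, 7 with total counts of nuclear genes, 8 with 1 surrogate variable, 8 without ac-WT mice 2 and 3, 7 with nuclear totals in those libraries, 19 with the replicate block, and 10 to 16 when single hearts were left out. The log2 fold change of Ier3 turned positive with limma-voom (0.0818), total counts (0.0997), nuclear totals (0.0855) and the replicate block (0.0657), and was -0.24 to 0.20 when single hearts were left out. The other 9 members kept a negative fold change in all 23 alternatives, and Atf3 and Nr4a1 kept an unadjusted p under 0.05 in all of them. The cause of these changes was not tested.

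No label says that the replicate numbers pair the hearts. Same-number hearts correlated at -0.16 to 0.36, over 0.1 in 4 of 6 pairs, and 6 of 12 hearts correlated best with their own number, a hint from the data and not from the design, so the numbers were not taken as pairs. Blocking on the replicate number, 9 members had an unadjusted p under 0.05 and 0 an adjusted one, 2 genes in all had an adjusted p under 0.05, and the SE of the Fos fold change went from 0.48 to 0.18 (log2 fold change -1.15). The alternatives on co-variation and on the other lists and markers, and the nuclear totals without ac-WT mice 2 and 3, were chosen after seeing the data.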

Other observations

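Lists of other early and stress genes were counted in the same test. Of all genes tested, 9.73% were lower and 4.91% were higher at an unadjusted p under 0.05. Of 10 hypoxia responsive genes, 3 were higher in ac-CYB5R3–KO hearts at that threshold and 0 were lower. They were Bnip3, a mitophagy receptor, at 32.99 ± 11.97 CPM in ac-WT and 56.7 ± 12.97 CPM in ac-CYB5R3–KO hearts (SD, n = 6), Egln3, a HIF prolyl hydroxylase, at 25.03 ± 5.20 and 38.4 ± 10.2 CPM, and Car9, a carbonic anhydrase, at 0.385 ± 0.140 and 0.708 ± 0.249 CPM. Of the 10 hypoxia genes, 3 had a log2 fold change below 0. Vegfa was among them, at 139 ± 94.9 and 78.7 ± 28.0 CPM (-0.82, SE 0.39, edgeR adjusted p = 0.351). By DESeq2 1 hypoxia gene was lower at an unadjusted p under 0.05. Of 10 stress-induced heat shock genes, 2 were lower, Hspa1a, the inducible HSP70, at 3.02 to 23.5 and 4.40 to 7.09 CPM, and Hspe1 at 61.5 to 115 and 54.8 to 64.3 CPM. Of 12 early cytokines and adhesion molecules, 1 was lower, Cxcl1. Without ac-WT mice 2 and 3 the hypoxia and cytokine counts were the same, and 1 heat shock gene was lower and 1 was higher. In that fit 4.54% of all genes were lower and 3.44% higher. With total counts 4 hypoxia genes and 1 heat shock gene were higher and 0 heat shock genes were lower. Under that scaling 2.06% of all genes were lower and 9.45% higher. None of the genes in these lists passed an adjusted p under 0.05 by edgeR, while DESeq2 called 1 hypoxia gene and 1 cytokine gene. The genes named here, other than Cxcl1, were chosen after their values were seen.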
